A study of Rattus norvegicus with 141 samples.

Results

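Collagens are the structural proteins of the extracellular matrix, and the rows examined here are every gene of the deposited rat count tables whose symbol has the form Col, a number, the letter a and a second number. The rule found 44 genes of the 30562 in each table, and the liver, stomach and duodenum tables list the same genes. They comprise 11 fibrillar chains, 6 chains of basement membrane collagen IV, 3 short chain network collagens, 9 fibril-associated collagens with interrupted helices (FACIT), 6 beaded filament chains of the collagen VI family, the anchoring fibril collagen Col7a1, 4 transmembrane collagens, 2 multiplexins and 2 others.

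A collagen molecule winds alpha chains into a triple helix inside the endoplasmic reticulum, where prolyl and lysyl hydroxylases modify the chains and the chaperone Hsp47 (Serpinh1) holds the helix together. After secretion, proteases trim the ends of fibrillar procollagen and lysyl oxidases crosslink the fibrils. Fibrillar collagens I and III give connective tissue its tensile strength, collagen IV forms the sheet of basement membranes, and collagens VII and XVII anchor stratified epithelium to the tissue below. In liver, stellate cells and portal fibroblasts are the best known source of collagens I and III; in the wall of the gut, fibroblasts and smooth muscle cells are.

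Male and female Sprague-Dawley rats, wild type and adult, on standard chow, were studied for the toxicology of microplastic and received vehicle, a low dose of 5 mg/kg or a high dose of 50 mg/kg. The labels used here do not say what the particles were, how they were given or for how long. PolyA RNA of pulverised tissue pieces was sequenced in 46 liver, 48 stomach and 47 duodenum libraries, 8 per tissue, sex and dose except 6 livers of high-dose females and 7 duodena of vehicle females. Every library carries a batch number from 1 to 3. Batch 3 held males only among vehicle and low-dose livers and among vehicle stomachs, and females only among high-dose duodena. Nothing in the labels states that replicates of a group are separate animals, so p-values measure the spread between these libraries, which may in part be technical.

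The smallest and largest library totals were 6153400 and 23717000 counts for liver, 4947800 and 23940000 for stomach, and 5470000 and 25504000 for duodenum. Levels are given as CPM, the counts of a gene scaled to a common library total, which carry no correction for transcript length, so each gene is compared only with itself. Tissue labels fitted their markers: summed hepatocyte markers had a lowest value of 90679 CPM in liver and a highest of 13905 CPM elsewhere, and summed parietal and chief cell markers had a lowest of 49299 CPM in stomach and a highest of 105.4 CPM elsewhere. The 44 collagens together took between 0.0564% and 0.216% of a liver library, between 0.442% and 1.41% of a stomach library and between 0.161% and 0.759% of a duodenum library. A few libraries stood apart. Stomach male control replicate 6 had the highest collagen share of its tissue together with the highest summed smooth muscle markers, 37283 CPM, and duodenum male control replicate 1 had both the highest collagen share and the highest summed smooth muscle markers of its tissue, 10629 CPM. Some of the results that rest on them are given with and without them. In tissue RNA, fewer cells of a type and less RNA per cell cannot be told apart.

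A gene was tested where enough libraries had counts (edgeR's filterByExpr with a minimum count of 10). By that filter 27 collagens were tested in liver, 40 in stomach and 37 in duodenum. Col2a1, Col9a2, Col10a1 and Col26a1 passed in none of the tissues, and their medians in vehicle controls were at most 0.550 CPM. Col9a1, Col9a3 and Col19a1 passed in stomach alone. Those left out in liver only were Col4a6, Col5a3, Col6a4, Col6a5, Col7a1, Col11a1, Col15a1, Col17a1, Col23a1 and Col28a1, whose vehicle medians in liver were 0.549 CPM or less. A gene was called where the Benjamini-Hochberg adjusted p of edgeR's quasi-likelihood test, over all genes tested in that comparison, was under 0.05. Counts of collagens at an unadjusted p under 0.05 are given without the share over all genes, and no result is drawn from them. Fold changes are on the log2 scale with their standard errors (SE).

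The 6 collagen IV genes lie as 3 head-to-head pairs, each pair on opposite strands with its starts close together. In the RefSeq annotation of the GRCr8 assembly the starts of Col4a1 and Col4a2 were 77 bases apart on chromosome 16, those of Col4a3 and Col4a4 413 bases apart on chromosome 9 and those of Col4a5 and Col4a6 1415 bases apart on chromosome X. The count tables use another build, mRatBN7.2, so these positions were used for the sequences alone. The whole stretch between the Col4a1 and Col4a2 starts is shown because both genes, which encode the chains of the most widespread collagen IV, are transcribed away from it and their levels are compared across libraries further on. It lies at chr16:84885521-84885596 on the + strand of GRCr8, and the capitals mark its only match to the GC box GGGCGG, here read on the other strand as CCGCCC.
Col4a1 and Col4a2, between the starts: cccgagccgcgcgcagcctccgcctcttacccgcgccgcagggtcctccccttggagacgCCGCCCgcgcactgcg
The bases before the start of Col1a2, which encodes the second chain of collagen I, are shown as the promoter of a gene that differed between the sexes. They lie at chr4:33518307-33518556 on the + strand of GRCr8, and the capitals mark a match to the CCAAT box, read on the other strand as ATTGG, and a match to the TATA box TATAAA.
Col1a2, upstream: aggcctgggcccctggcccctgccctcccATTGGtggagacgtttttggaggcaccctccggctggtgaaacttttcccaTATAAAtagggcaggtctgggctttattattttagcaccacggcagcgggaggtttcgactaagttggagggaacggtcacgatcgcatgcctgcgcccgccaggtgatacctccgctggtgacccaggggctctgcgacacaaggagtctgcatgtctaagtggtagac
A window of 300 bases (250 before and 50 after the start) was at hand for 35 of the 44 collagens, with 38 windows in all. GGGCGG, on either strand, stood in 52.6% of the collagen windows and in 33.1% of all 33469 windows. CCAAT stood in 31.6% of collagen windows and 37.5% of all, and TATAAA in 10.5% of collagen windows and 14.2% of all. No match marked in the stretches printed overlaps another. These are matches of letters only.

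The first comparison asked how collagen transcripts differed between tissues in vehicle controls, in 1 fit of 47 libraries with 40 collagens tested among 16033 genes. Stomach carried more of nearly every collagen than duodenum: 33 of the 40 were higher and 3 lower, where 74.4% of all genes were called and 37.2% were higher, with a median log2 difference of 1.15 over the collagens and -0.01 over all genes. Liver carried less than either. Against stomach, 3 collagens were higher and 33 lower in liver (80.7% of all genes called, 42.6% lower), with a median of -3.13 against -0.06 over all genes. Against duodenum, 6 were higher and 29 lower in liver (80.1% called, 44.2% lower), with a median of -1.62 against -0.14 over all genes. The standard errors of the called collagens lay between 0.09 and 0.54.

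These fold changes use TMM scaling, which sets each library's effective size from the bulk of its genes. With raw library totals instead, the median over all genes moved to -1.11 for liver against stomach and to -1.21 for liver against duodenum, and the liver fold changes of the collagens shifted down, least for Col9a1. Calls of higher expression in liver that did not survive this are named below. Smooth muscle markers followed the same order as the collagens: 10 of 10 were higher in stomach than in duodenum (median 1.92) and 10 of 10 lower in liver than in stomach (median -7.35). Of the fibroblast markers, 9 of 10 were higher in stomach than in duodenum (median 2.13). In liver 8 of them were lower and 2 higher than in stomach (median -5.86). Stellate cell and endothelial markers did not follow that order. Of 9 stellate cell markers, 4 were higher and 4 lower in liver than in stomach, and 5 higher and 3 lower than in duodenum. Of 10 endothelial markers, 6 were higher and 3 lower in liver than in stomach, and 7 higher and 1 lower than in duodenum. The part of cell composition in the tissue differences was not tested.

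Among the fibrillar collagens, Col1a1, which encodes the main chain of collagen I, had a lowest, median and highest level of 3.59, 8.22 and 27.8 CPM in 16 vehicle livers, 437, 760 and 2563 CPM in 16 vehicle stomachs and 100.8, 210.3 and 569 CPM in 15 vehicle duodena. The liver range did not overlap either of the others. Col3a1, the sole chain of collagen III, had 79.9, 165 and 340 CPM in livers, 1146, 1669 and 4059 CPM in stomachs and 359, 591 and 1397 CPM in duodena. Here the liver range stayed below the duodenal range, though the gap was small. In log2 fold change liver was lower than stomach for Col1a1 (-5.35 ± 0.23 SE), the collagen V chain Col5a3 (-5.05), Col1a2 (-3.59), Col11a1 (-3.33), Col5a2 (-3.21), Col11a2 (-2.60), Col3a1 (-2.17 ± 0.15), Col5a1 (-1.89) and Col24a1 (-0.98). Liver was also lower than duodenum for those 9 genes, from -3.49 for Col1a1 to -0.62 for Col5a1. Stomach was higher than duodenum for Col5a3 (1.99), Col1a1 (1.85 ± 0.20), Col1a2 (1.70), Col3a1 (1.5), Col5a1 (1.28), Col5a2 (1.27), Col11a2 (0.85) and Col27a1 (0.70), and lower for Col24a1 (-0.51). Col27a1, a fibrillar collagen known from cartilage, was called higher in liver than in duodenum (0.73), but its fold change was -0.37 with raw totals.

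The collagen IV chains split by pair. Col4a1 and Col4a2, which build most basement membranes, were higher in stomach than in duodenum by 0.87 and 0.89, and lower in liver than in stomach by -2.35 and -2.30. Col4a5 and Col4a6, the pair on chromosome X, showed wider gaps: stomach exceeded duodenum by 2.66 and 2.64, and liver fell below stomach by -3.76 and -6.87. Col4a5 had 2.04, 5.07 and 11.2 CPM in vehicle livers, 116, 144 and 273 CPM in stomachs and 11.1, 18.6 and 119 CPM in duodena. The highest duodenal value came from male control replicate 1, the library with the highest smooth muscle markers of the tissue. Col4a3 and Col4a4, which are best known from the kidney glomerulus, were higher in stomach than in duodenum by 0.91 and 1.17. Against stomach, liver was lower for Col4a3 (-0.75), while Col4a4 had a fold change of -0.09 (edgeR adjusted p = 0.629). Col4a4 was called higher in liver than in duodenum (1.08), but stood at -0.02 with raw totals; Col4a6 (-4.23), Col4a1 (-1.48), Col4a2 (-1.41) and Col4a5 (-1.09) were lower there.

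In the collagen VI family the chains differed in direction between gut regions. Col6a4, a chain whose gene is disrupted in humans, had 8.63, 14.4 and 28.6 CPM in vehicle stomachs and 105.4, 153 and 370.0 CPM in vehicle duodena, and a median of 0 CPM in livers. It was lower in stomach than in duodenum by -3.47 ± 0.16 and lower in liver than in duodenum by -10.45 ± 0.28, the first against the direction of the other collagen VI chains. The liver value rests on 11 counts in all 16 vehicle livers. Col6a1, Col6a2 and Col6a3, the chains of the common collagen VI, were higher in stomach than in duodenum by 0.85, 0.73 and 0.38, although the last was not called with raw totals (0.31, adjusted p = 0.137). They were lower in liver than in stomach by -2.77, -3.27 and -3.05. Col6a5 was higher in stomach than in duodenum (1.28) and lower in liver than in stomach (-8.47). Col6a6 was higher in liver than in duodenum (2.27, and 1.20 with raw totals) and than in stomach (1.14, but 0.11 with raw totals, adjusted p = 0.648), and higher in stomach than in duodenum (1.13).

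Col19a1, a FACIT collagen, had 10.7, 14.5 and 24.0 CPM in vehicle stomachs, with medians of 0 CPM in livers and 0.102 CPM in duodena. Its log2 fold change was 6.90 ± 0.24 for stomach against duodenum and -8.14 ± 0.29 for liver against stomach, which rests on 4 counts in all 16 livers. Col14a1, which binds the surface of collagen I fibrils, ran differently: it was higher in stomach (2.57) and in liver (2.64) than in duodenum. Col16a1 was lower in liver than in stomach (-3.88) and Col12a1 likewise (-3.56). Col9a1 gave 1 count in all vehicle livers against 328 in stomachs, which makes the stomach level 412.5 times the liver level with an exact 95% interval of 73.5 to 16342 that covers counting error only. Against duodenum, liver was lower for Col9a1 (-4.37, from 1 count in vehicle livers and 78 in duodena), Col12a1 (-3.60), Col16a1 (-2.71) and Col9a3 (-1.15). Among the other FACIT calls, stomach exceeded duodenum for Col9a1 (2.12), Col16a1 (1.16), Col9a3 (1.1) and Col20a1 (0.43), and liver lay below stomach for Col9a3 (-2.25) and Col20a1 (-0.46).

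Col7a1 and Col17a1, which fasten stratified epithelium to its base and belong to anchoring fibrils and hemidesmosomes, were both highest in stomach. Col7a1 had 14, 17.5 and 33.5 CPM in vehicle stomachs and 0.511, 1.25 and 3.13 CPM in vehicle duodena, a difference of 3.77 ± 0.22. Col17a1 had 22.6, 37.1 and 110 CPM in stomachs and 4.9, 12.8 and 24.0 CPM in duodena, a difference of 1.70 ± 0.20. Both were lower in liver than in stomach, by -5.59 and -8.32. The rat stomach has a forestomach with squamous lining, and summed squamous markers ran from 480 to 4729 CPM over all stomach libraries but no higher than 2.93 CPM in duodenum and 1.13 CPM in liver. Of the remaining transmembrane collagens, Col23a1 was lower in stomach than in duodenum (-1.99 ± 0.23) and in liver than in stomach (-4.01), Col25a1 higher in stomach than in duodenum (0.50), and Col13a1 higher in liver than in stomach (1.09) and than in duodenum (0.78). Both Col13a1 calls were lost with raw totals, at 0.05 (adjusted p = 0.765) and -0.32 (adjusted p = 0.0736).

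The multiplexins went opposite ways in liver. Col18a1, whose C-terminal fragment is endostatin and which hepatocytes are known to make, had 284, 654 and 1016 CPM in vehicle livers, 144, 229 and 345 CPM in stomachs and 104, 176 and 375 CPM in duodena. It was higher in liver than in stomach by 2.53 ± 0.14 (1.49 with raw totals) and than in duodenum by 2.85 ± 0.15 (1.76 with raw totals). Stomach exceeded duodenum by 0.32, a call lost with raw totals (adjusted p = 0.116). Col15a1, the close relative of Col18a1, had medians of 0.251 CPM in livers, 171 CPM in stomachs and 65.0 CPM in duodena. It was lower in liver than in stomach by -8.52 and than in duodenum by -7.23. The short chain collagens Col8a2 and Col8a1, found around vessels and in the eye, were higher in stomach than in duodenum by 2.73 and 1.42, as was Col28a1 by 2.93.

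**Figure D1:**
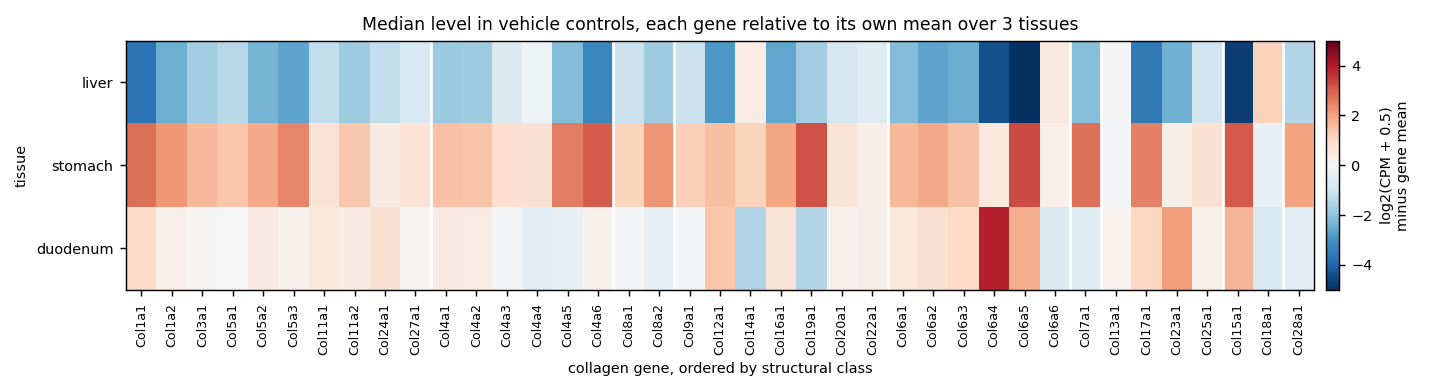
Median level of each collagen in vehicle controls of liver, stomach and duodenum (rows), as log2(CPM + 0.5) minus the gene's own mean over the 3 tissues, for genes with a median of at least 1 CPM in some tissue, ordered by structural class with white lines between classes. Most columns are red in the stomach row and blue in the liver row; Col18a1, with medians of 654, 229 and 176 CPM in liver, stomach and duodenum, is red in liver, and Col6a4, at 153 CPM in duodenum and 14.4 CPM in stomach, is red in duodenum.

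The second comparison set females against males. It was made in vehicle controls, and again in the low-dose and high-dose animals, which share no library with the controls; the contrasts in dosed animals were added after the control result had been seen. In vehicle livers 5 of 27 collagens were lower in females and none higher, while 22.8% of all genes were called in that comparison and 12.3% were lower, so the collagen count is of the order found among all genes. The 5 were Col3a1, Col1a1, Col1a2, Col27a1 and Col4a5. In vehicle stomachs 2 of 40 were lower in females, Col3a1 and Col1a1, where 0.172% of all genes were called and 0.0925% were lower. In vehicle duodena 0 of 37 were called (0.079% of all genes), with 7 at an unadjusted p under 0.05.

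Col1a1 in vehicle livers had a lowest, median and highest level of 3.59, 5.23 and 8.19 CPM in 8 females and 8.26, 14.4 and 27.8 CPM in 8 males. No female value reached the lowest male value. The log2 fold change was -1.42 ± 0.29 SE (edgeR adjusted p = 0.000196), and it was -1.46 in batch 1 and -1.20 in batch 2 alone. Col3a1 had 79.9, 155 and 180 CPM in females and 147, 247 and 340 CPM in males, so the groups overlapped at their edges. Its fold change was -0.74 ± 0.14 (adjusted p = 0.000123), with -0.80 and -0.65 in batches 1 and 2. Col1a2 had 16.0, 21.2 and 26.9 CPM in females and 17.2, 31.3 and 43.7 CPM in males, a fold change of -0.54 ± 0.18 (adjusted p = 0.0221).

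Col27a1 had 4.48, 7.71 and 15.9 CPM in vehicle female livers and 6.76, 17.4 and 45.2 CPM in male livers, a fold change of -1.03 ± 0.28 (edgeR adjusted p = 0.00624). Col4a5 had 2.04, 3.43 and 7.42 CPM in females and 2.77, 7.12 and 11.2 CPM in males, a fold change of -0.86 ± 0.28 (adjusted p = 0.0224). The batches differed in size for both genes: Col27a1 had -1.34 in batch 1 and -0.60 in batch 2, and Col4a5 had -1.33 and -0.36. Batch 3 held vehicle livers of males only, so leaving it out removes no female from this comparison. Without it Col1a2 had an edgeR adjusted p of 0.0561 and Col4a5 of 0.0667, and 3 of the 5 stayed called. Over the 8 alternatives the adjusted p ran from 0.000924 to 0.0561 for Col1a2 and from 0.00203 to 0.0667 for Col4a5. Col18a1, the most liver-rich collagen relative to the gut, did not pass in the same libraries (0.03 ± 0.14, adjusted p = 0.909), and neither did Col4a1 (-0.13 ± 0.20, adjusted p = 0.674).

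In dosed livers the same direction was seen. At 5 mg/kg 14 of 27 collagens were lower in females and none higher (24.3% of all genes called, 12.4% higher and 11.9% lower). Col27a1 (-1.89 ± 0.29), Col4a5 (-1.70 ± 0.29), Col1a1 (-1.64 ± 0.29), Col3a1 (-0.80 ± 0.15) and Col1a2 (-0.78 ± 0.18) were among them. The other 9 were Col16a1 (-0.87), Col6a2 (-0.85), Col6a1 (-0.60), Col4a1 (-0.58), Col5a2 (-0.57), Col18a1 (-0.55), Col6a3 (-0.54), Col4a2 (-0.52) and Col14a1 (-0.52). Col1a1 at this dose had 2.47, 4.39 and 10.7 CPM in females and 10.5, 16.4 and 37.8 CPM in males. In the same libraries 9 of 9 tested smooth muscle markers had negative fold changes (median -0.60, none called), and summed ribosomal protein transcripts averaged 18505 ± 6802 CPM in females and 10849 ± 2499 CPM in males (SD, n = 8 each). With the smooth muscle markers as a covariate the count was 8, adjusted for the share of ribosomal protein transcripts it was 1 higher and 6 lower with Col4a2 turned to 0.0228, and without female low replicate 6 it was 9. Col1a1, Col1a2, Col3a1, Col4a5, Col27a1 and Col6a2 stayed called in each of the 8 alternatives.

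At 50 mg/kg 5 of 27 liver collagens were lower in females (15.6% of all genes called, 7.65% higher and 7.95% lower). Col3a1 (-0.80 ± 0.16, edgeR adjusted p = 0.000129), Col27a1 (-1.11 ± 0.30), Col1a1 (-1.08 ± 0.31) and Col4a5 (-0.97 ± 0.30) were the same as in controls, and Col14a1 (-0.52 ± 0.18, adjusted p = 0.0471) was the fifth. The Col14a1 call was kept in 17 of 46 fits that left out 1 library and in 4 of 8 alternatives, with adjusted p-values of up to 0.140. Col1a2 had a fold change of -0.46 ± 0.19 (adjusted p = 0.0969). Col3a1 had 96.7, 120 and 170 CPM in 6 females and 146, 264 and 309 CPM in 8 males. The count was 2 without female high replicate 4, 3 without female high replicate 1 or 6 or male high replicate 3 or 4, and 2 without batch 3. Whether the sex difference itself changed between vehicle and low dose was not tested; between vehicle and high dose it was, and no gene of 13130 passed (0%), with 307 at an unadjusted p under 0.05.

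In stomach Col1a1 had 437, 520 and 837 CPM in vehicle females and 747, 897 and 2563 CPM in vehicle males, a fold change of -0.95 ± 0.20 (edgeR adjusted p = 0.0196). Col3a1 had 1146, 1278 and 1725 CPM in females and 1568, 1946 and 4059 CPM in males, a fold change of -0.70 ± 0.15 (adjusted p = 0.0175). The highest male value of both genes came from male control replicate 6. Without that library the fold changes were -0.60 (adjusted p = 0.0757) and -0.48 (adjusted p = 0.0590), and neither gene was called. The count was 1 without female control replicate 4, 5 or 7. Within batches the values were -0.85 and -1.09 for Col1a1 and -0.64 and -0.80 for Col3a1. Col1a2 had a fold change of -0.58 ± 0.16 (adjusted p = 0.139).

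At 5 mg/kg, where male control replicate 6 plays no part in the means compared, Col3a1 was lower in female stomachs by -0.69 ± 0.15 (edgeR adjusted p = 0.0178), the only collagen of 40 called (0.231% of all genes, 0.106% lower). It had 899, 1284 and 1725 CPM in females and 1454, 2116 and 2770 CPM in males, and Col1a1 followed with -0.83 ± 0.20 (adjusted p = 0.0575). The call was lost without male low replicate 6 or 8 or female low replicate 3 or 7, each with 0 collagens called. It was 2 without female control replicate 8, female low replicate 6 or female high replicate 1 or 3, and 3 without male control replicate 6 or male low replicate 7. At 50 mg/kg neither passed: Col3a1 had -0.46 ± 0.15 (adjusted p = 0.200) and Col1a1 -0.60 ± 0.20 (adjusted p = 0.218). The collagen called there was Col23a1, a transmembrane collagen that sheds its ectodomain, which was higher in females (1 of 40, where 0.244% of all genes were called and 0.0594% were higher). Col23a1 had 3.39, 5.95 and 11.2 CPM in high-dose females and 1.03, 2.77 and 4.38 CPM in high-dose males, a fold change of 1.26 ± 0.27 (adjusted p = 0.0232), with 1.41 and 1.38 in batches 1 and 2. The count fell to 0 without male high replicate 2, 3 or 4 or female high replicate 1, 5 or 7. It was also 0 without the batch term and when adjusted for the share of ribosomal protein transcripts, and the adjusted p ran from 0.00303 to 0.200 over the 9 alternatives.

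In duodenum no collagen was called between the sexes at any dose (0.0988% of all genes at 5 mg/kg and 0.079% at 50 mg/kg), with 2 at an unadjusted p under 0.05 at each dose. The collagen with the smallest p in controls was Col18a1, with 104, 143 and 313 CPM in 7 females and 132, 262 and 375 CPM in 8 males (-0.59 ± 0.18, edgeR adjusted p = 0.431). Col3a1 had -0.44 ± 0.20 (adjusted p = 0.854) and Col1a1 -0.47 ± 0.26 (adjusted p = 0.977). In batch 1 they had -1.03 and -1.15, and in batch 2 -0.24 and -0.30. Over the fits that left out 1 library, Col3a1 ran from -0.55 to -0.26 and Col1a1 from -0.63 to -0.22.

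**Figure D2:**
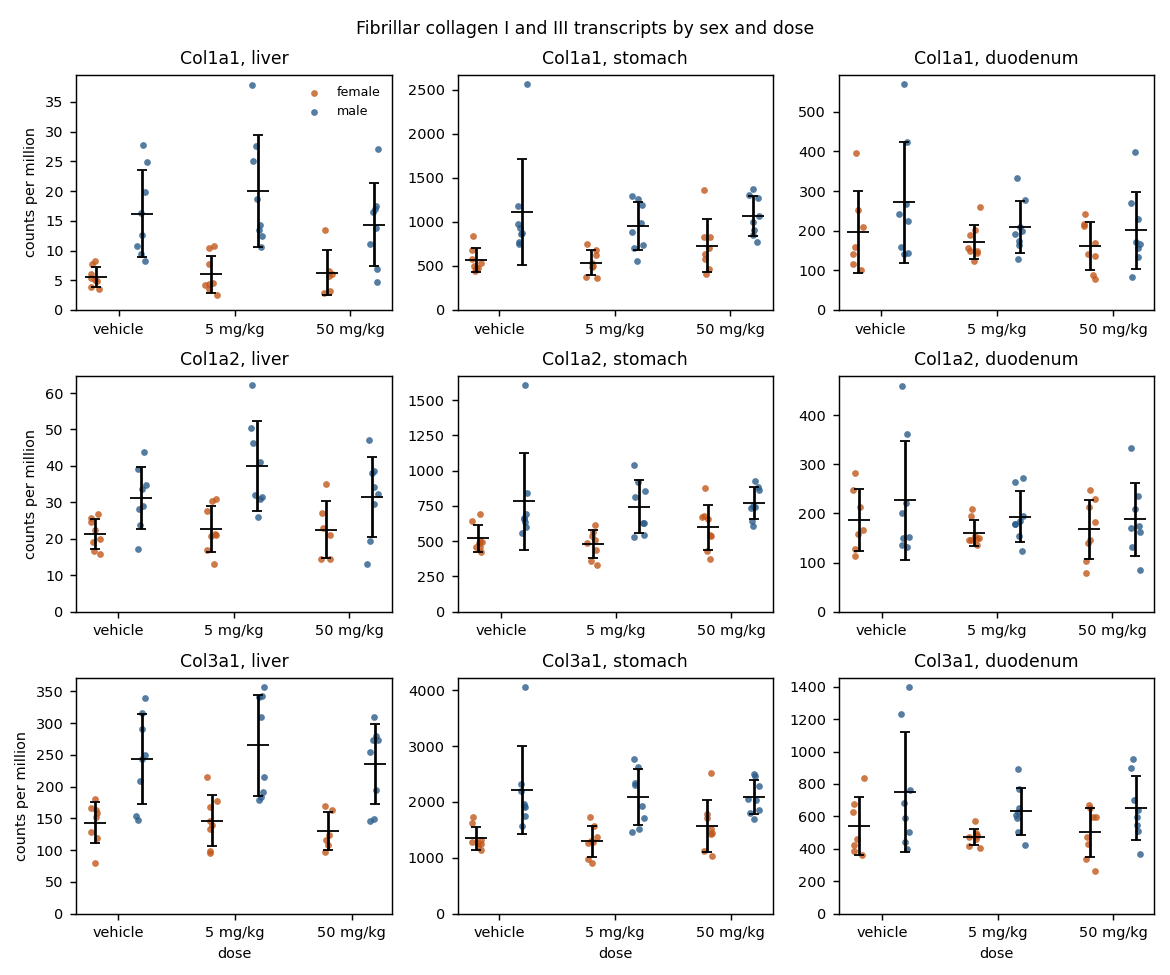
CPM of Col1a1, Col1a2 and Col3a1 (rows) in liver, stomach and duodenum (columns) by dose, with females left of males; each point is a library and the black marks are the mean ± SD of the group. In vehicle livers the Col1a1 values of females end at 8.19 CPM and those of males begin at 8.26 CPM; in vehicle stomachs 1 male library lies far above the others in all 3 genes, at 2563, 1605 and 4059 CPM.

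Genes that act on collagen were read from lists. In the comparison of vehicle livers 22.8% of all genes were called, 10.5% higher and 12.3% lower in females, and most of the list counts are near those shares. In vehicle livers of females against males, 1 of 8 tested genes for trimming and crosslinking was lower and none higher: Lox, the lysyl oxidase that crosslinks fibrils, had a lowest, median and highest level of 0, 0.180 and 0.682 CPM in females and 0.503, 4.65 and 38.3 CPM in males. Its fold change was -5.08 ± 0.87 (edgeR adjusted p = 1.57e-05), and it was -5.98 at the low and -4.74 at the high dose. Of 15 TGF beta and fibrosis genes 2 were lower and 2 higher in females, and the elastin gene Eln was among the lower (-1.07 ± 0.21, adjusted p = 0.000161), along with the latent TGF beta binding protein Ltbp2 (-0.96); Tgfbr2 (0.52) and Tgfb2 (0.79) were higher. Eln was also lower in female stomachs, with 141, 195 and 226 CPM in vehicle females and 258, 308 and 451 CPM in vehicle males, which did not overlap (-0.75 ± 0.14, adjusted p = 0.00217), and again at 5 mg/kg (-0.82 ± 0.14, adjusted p = 0.000392).

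Of 7 tested genes of collagen breakdown in vehicle livers, 2 were higher in females, the membrane protease Mmp14 (0.79 ± 0.13) and the inhibitor Timp3 (1.02 ± 0.26), and 2 lower, the gelatinase Mmp2 (-0.45 ± 0.14) and the collagen uptake receptor Mrc2 (-1.02 ± 0.34). Of 19 genes for folding and modification, 1 was higher, the transcription factor Creb3l1 (1.42 ± 0.22), and 3 were lower, Colgalt1, P3h1 and Fkbp10 (-0.29, -0.30 and -0.51). Of 13 laminins and other basement membrane genes, the laminin chain Lama3 was lower (-2.33 ± 0.25) and Lama2 higher (0.51 ± 0.18). Of 8 fibril-associated proteoglycans Podn was lower (-0.32) and Bgn higher (0.49), and of 4 collagen receptors the integrin chain Itgb1 was lower (-0.19). No fibroblast marker of 8 and no smooth muscle marker of 9 was called in this comparison, and 1 of 8 stellate cell markers was higher. Summed pancreatic acinar markers separated the sexes in liver, with 37.4 to 361 CPM in vehicle females and 0.107 to 1.30 CPM in vehicle males; the part of that difference in the collagen values was not tested. Between females and males in vehicle stomachs and duodena no other gene of these lists was called.

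The third comparison, and the main one of the design, was between doses. No collagen was called at 50 mg/kg against vehicle in any tissue. In liver this was 0 of 27, with 0% of all genes called. In stomach it was 0 of 40, where 4.49% of all genes were called, 2.65% higher and 1.84% lower, and in duodenum 0 of 37, where 16.3% were called, 8.76% higher and 7.58% lower. At an unadjusted p under 0.05 there were 1, 2 and 13 collagens in liver, stomach and duodenum. The share of all genes at that threshold is not given, so these counts are not read as results about the collagens. DESeq2 called 1 collagen in duodenum, Col17a1. At 5 mg/kg against vehicle 0 collagens and 0% of all genes were called in each tissue, with 1, 1 and 3 collagens at an unadjusted p under 0.05.

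In duodenum 35 of the 37 collagens nevertheless had negative fold changes at 50 mg/kg, with a median of -0.29, while 53.3% of all genes were negative with a median of -0.02. At 5 mg/kg 33 were negative, with a median of -0.25 against -0.01 over all genes; both doses are set against the same 15 vehicle libraries. The smallest p-values at 5 mg/kg belonged to Col4a4 (-0.44 ± 0.17, edgeR adjusted p = 0.273), Col5a3 (-0.55 ± 0.23, adjusted p = 0.287) and Col4a5 (-0.41 ± 0.19, adjusted p = 0.331). Without male control replicate 1 they were -0.27, -0.31 and -0.11. The smallest p at 50 mg/kg belonged to Col17a1, with a lowest, median and highest level of 4.9, 12.8 and 24.0 CPM at vehicle, 5.25, 10.6 and 20 CPM at 5 mg/kg and 4.62, 8.90 and 16.3 CPM at 50 mg/kg. The groups overlapped over most of their range. Its fold change at 50 mg/kg was -0.59 ± 0.22 (edgeR adjusted p = 0.0537), and batches 1 and 2 gave -0.53 and -0.73. Col20a1, a FACIT collagen, followed (-0.18 ± 0.07, adjusted p = 0.0879, with -0.21 and -0.24 in the batches), then Col6a4 (-0.35 ± 0.15, adjusted p = 0.0882, with -0.01 and -0.46). Col7a1, the partner of Col17a1 in epithelial anchorage, had -0.55 ± 0.23 (adjusted p = 0.0912). The 2 positive ones were Col28a1 (0.41 ± 0.25, adjusted p = 0.254) and Col25a1 (0.09 ± 0.13, adjusted p = 0.678).

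For the matrix collagens of the duodenum the batches went different ways. Col1a1 had 100.8, 210.3 and 569 CPM at vehicle, 124, 182 and 333 CPM at 5 mg/kg and 77.1, 167 and 397 CPM at 50 mg/kg. Its fold change at 50 mg/kg was -0.38 ± 0.18 (edgeR adjusted p = 0.141), but 0.25 in batch 1 and -0.83 in batch 2. Col1a2 (-0.25 ± 0.16; 0.24 and -0.68 in the batches), Col3a1 (-0.18 ± 0.14; 0.22 and -0.50), Col4a1 (-0.32 ± 0.15; 0.00 and -0.51), Col4a2 (-0.28 ± 0.14; 0.03 and -0.49), Col6a1 (-0.30 ± 0.15; 0.09 and -0.47), Col6a3 (-0.34 ± 0.17; 0.07 and -0.62) and Col18a1 (-0.24 ± 0.12; 0.09 and -0.41) showed the same split. Batch 2 holds duodenum male control replicate 1; without it the pooled fold change of Col1a1 was -0.26, that of Col3a1 -0.09, that of Col4a1 -0.19 and that of Col6a3 -0.19, and Col17a1 was called (-0.64, adjusted p = 0.0416). Batch 3 held 2 vehicle, 3 low-dose and 2 high-dose libraries and was not read alone.

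Other transcripts moved with the high dose in the same duodena. Summed ribosomal protein transcripts averaged 55512 ± 15397 CPM at 50 mg/kg (SD, n = 16) and 38717 ± 6767 CPM at vehicle (n = 15), and with their share as a covariate the median collagen fold change was 0.07, with 27 positive and 10 negative and 0 of all genes called. Summed enterocyte markers averaged 8430 ± 2964 CPM at 50 mg/kg and 11151 ± 5867 CPM at vehicle, and 9 of 9 had negative fold changes, none called. With the smooth muscle markers as a covariate 9 of 37 collagens were called lower. In that fit 3842 of 15189 genes were called in either direction. How many of those were lower is not given, so the 9 are not read as a result about the collagens. Without male high replicate 6 there were 5 collagens called. There were 2 without female control replicate 2, and 1 each without male control replicate 1, 3 or 7, male high replicate 4 or 8, female control replicate 5, female low replicate 7 or female high replicate 3. For the fits with 1 library left out the share over all genes is not given. The part of the ribosomal protein, enterocyte and smooth muscle transcripts in the collagen values was not tested further.

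Listed partners were read in duodenum at 50 mg/kg beside the 16.3% of all genes called and 7.58% lower. Of the laminins and other basement membrane genes 4 of 14 were lower and none higher, and 14 of 14 had negative fold changes; the lists with 1 call are near or under the share over all genes. Among them, Lamb3 (-2.06 ± 0.42, edgeR adjusted p = 0.0104) and Lama3 (-1.28 ± 0.28, adjusted p = 0.0104) encode laminin chains of epithelial basement membranes, and Agrn (-0.54 ± 0.13, adjusted p = 0.0105) encodes the heparan sulfate proteoglycan agrin. Lama3 had 5.73, 10.3 and 25.3 CPM at 50 mg/kg and 12.2, 17.9 and 150.0 CPM at vehicle. Of 11 genes for trimming and crosslinking 1 was lower, Bmp1, the procollagen C-proteinase (-0.33 ± 0.10, adjusted p = 0.0228), with 11 of 11 negative. Of 7 receptors 1 was lower, the discoidin receptor Ddr1 (-0.25 ± 0.07, adjusted p = 0.0162), and of 21 folding genes 1 was higher, the channel gene Tmem38b (0.29 ± 0.08, adjusted p = 0.0189). None of 11 genes of collagen breakdown, 8 proteoglycans and 18 TGF beta and fibrosis genes was called there, and none of any of these lists in liver or stomach at 50 mg/kg.

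In stomach at 50 mg/kg against vehicle, 26 of 40 collagens were negative and the median was -0.05. Without the batch term 21 were negative, and adjusted for the share of ribosomal protein transcripts 9 were, with a median of 0.11; those transcripts averaged 44483 ± 17001 CPM at 50 mg/kg and 29863 ± 9130 CPM at vehicle (SD, n = 16 each). Col23a1 had the smallest p, with 1.08, 2.68 and 4.73 CPM at vehicle, 1.01, 2.53 and 4.37 CPM at 5 mg/kg and 1.03, 3.66 and 11.2 CPM at 50 mg/kg. The high-dose libraries spread from the lowest vehicle value to above the highest. Its fold change was 0.54 ± 0.20 (edgeR adjusted p = 0.0943), with 0.85 and 0.16 in batches 1 and 2, and it was called without male control replicate 6 (0.64, adjusted p = 0.0349). Next came Col18a1 (-0.16 ± 0.07, adjusted p = 0.151) and Col13a1 (-0.20 ± 0.10, adjusted p = 0.214). The fibrillar genes had small fold changes: 0.09 ± 0.14 for Col1a1, 0.08 ± 0.11 for Col1a2 and 0.04 ± 0.10 for Col3a1. Col4a1, Col4a2, Col6a1 and Col6a3 lay between -0.10 and -0.01, and Col7a1 and Col17a1 had 0.19 ± 0.17 and 0.23 ± 0.23. At 5 mg/kg the smallest p-values belonged to Col7a1 (-0.41 ± 0.18, adjusted p = 0.801), Col4a5 (-0.21 ± 0.11, adjusted p = 0.806) and Col18a1 (-0.13 ± 0.07, adjusted p = 0.806).

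Set directly against 5 mg/kg, 50 mg/kg gave 1 call of 40 in stomach, Col23a1, higher by 0.81 ± 0.20 (edgeR adjusted p = 0.0344), where 0.707% of all genes were called and 0.614% were higher. Batches 1 and 2 gave 0.79 and 0.61. Col7a1 (0.60 ± 0.17, adjusted p = 0.0761) and Col17a1 (0.61 ± 0.23, adjusted p = 0.167) had positive fold changes as well, with 0.63 and 0.34 and with 0.70 and 0.26 in the batches. Squamous forestomach markers were higher for 1 of 6 and positive for 6 of 6, with a median of 0.64, and their sum averaged 2227 ± 995 CPM at 50 mg/kg and 1413 ± 536 CPM at 5 mg/kg (SD, n = 16 each). With those markers as a covariate the call was lost, as it was without the batch term and without batch 3. In each of these fits 0 of all genes were called, where the main fit called 107. The part of the forestomach transcripts in the Col23a1 value was not tested. The call was also lost in 16 of the 48 fits that left out 1 library. Those 16 were male low replicates 1, 2, 3, 5 and 7, male high replicates 1, 3, 4, 6 and 8, female low replicates 2, 3 and 4, and female high replicates 1, 5 and 7. The count was 2 without male control replicate 6 or male high replicate 2 or 7, and 3 without male low replicate 8. In liver and duodenum the same comparison called 0 collagens and 0% of all genes, with 0 and 1 collagens at an unadjusted p under 0.05.

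In liver the collagens were balanced at 50 mg/kg, 14 positive and 13 negative with a median of 0.01. Col24a1, a minor fibrillar collagen, had the smallest p at both doses, with 0.326, 1.39 and 2.12 CPM at vehicle, 0.176, 0.962 and 2.20 CPM at 5 mg/kg and 0.186, 0.910 and 1.64 CPM at 50 mg/kg. Its fold changes were -0.46 ± 0.21 at 5 mg/kg and -0.56 ± 0.23 at 50 mg/kg, and its adjusted p was 1 at each. Col8a2 (0.38 ± 0.26) and Col14a1 (-0.17 ± 0.12) followed at 50 mg/kg, and Col1a2 (0.19 ± 0.12) and Col8a2 (0.39 ± 0.25) at 5 mg/kg. The fold changes at 50 mg/kg were -0.01 ± 0.20 for Col1a1, 0.03 ± 0.13 for Col1a2, -0.09 ± 0.10 for Col3a1, -0.09 ± 0.15 for Col4a1, -0.08 ± 0.14 for Col4a2, -0.08 ± 0.11 for Col6a1, -0.13 ± 0.14 for Col6a3 and 0.01 ± 0.10 for Col18a1. Col1a1 spanned 2.79 to 27.1 CPM at 50 mg/kg and 3.59 to 27.8 CPM at vehicle.

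The sexes taken apart gave no collagen call at 50 mg/kg. In males these were 0 of 27 in liver, 0 of 40 in stomach and 0 of 37 in duodenum, where 0%, 7.06% (4.95% higher and 2.11% lower) and 0% of all genes were called, and in females likewise, where 0% of genes were called in each tissue. At an unadjusted p under 0.05 there were 0, 2 and 4 collagens in males and 1, 3 and 1 in females, in liver, stomach and duodenum, and in stomach males 1 was called without male high replicate 7. The test of whether the response to 50 mg/kg differed between the sexes called no gene in any tissue (0%), with 0 collagens in each at an unadjusted p under 0.05. In stomach 35 of 40 collagens had a positive difference, female response minus male response, with a median of 0.22 against 0.01 over all genes, but adjusted for the share of ribosomal protein transcripts 20 were positive and 20 negative; the smallest adjusted p was 0.655, for Col8a2 (0.40), followed by Col23a1 (0.70 ± 0.39, adjusted p = 0.664).

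**Figure D3:**
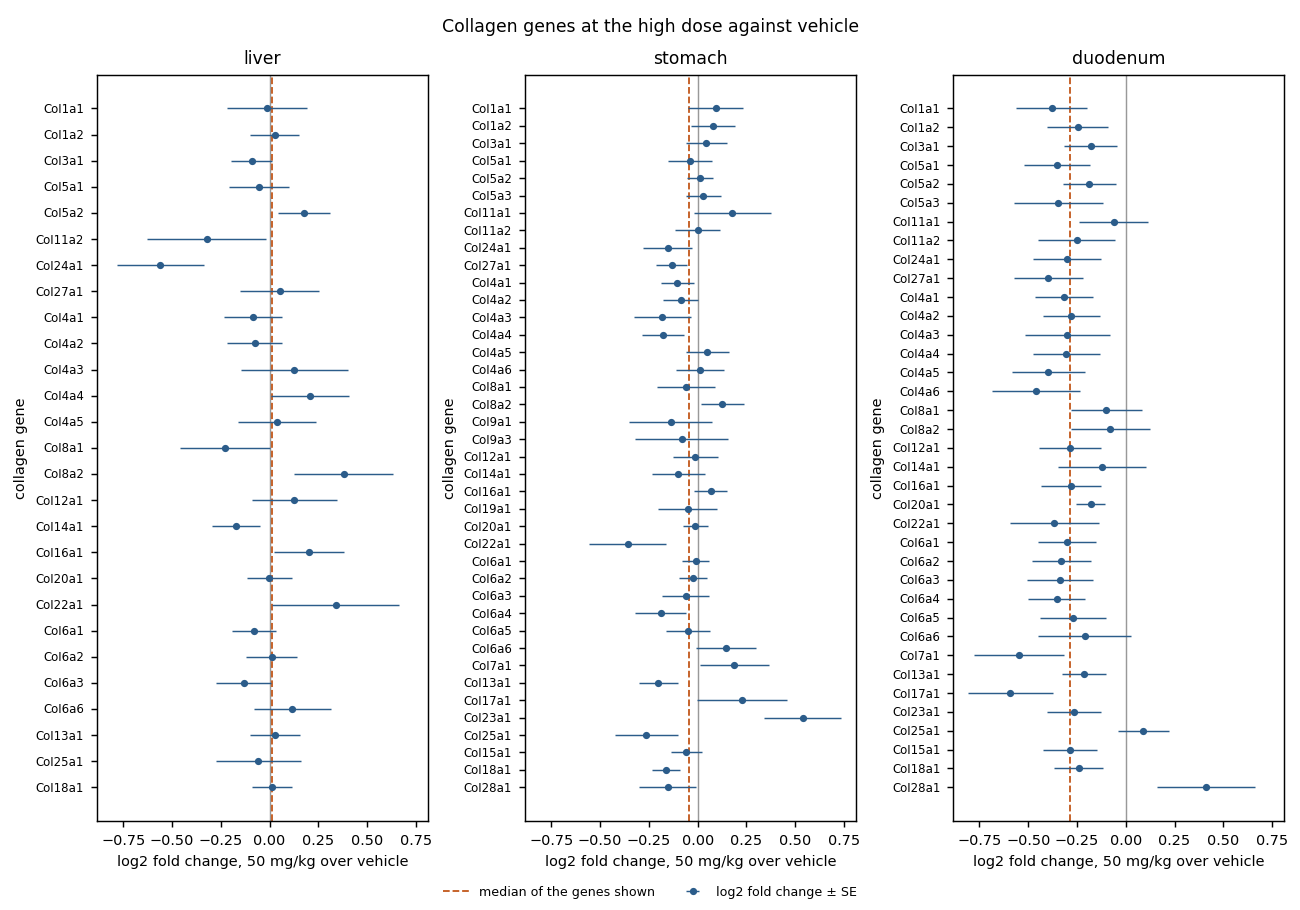
Log2 fold change of each tested collagen at 50 mg/kg over vehicle in liver, stomach and duodenum, with bars of ± SE and a dashed line at the median of the genes shown, which is 0.01, -0.05 and -0.29. In duodenum 35 of 37 points lie left of 0 and none passed the test; in liver and stomach the points lie on both sides.

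Pairs of chains that assemble together or lie head to head were compared across the libraries of each tissue, as log2(CPM + 0.5) over 46, 48 and 47 libraries of liver, stomach and duodenum, in 27 relations with permutation p-values adjusted over them. The libraries of a tissue share sexes, doses and batches, and each r describes these libraries. Col4a1 and Col4a2, whose shared upstream stretch is printed above, tracked each other most closely: Pearson's r was 0.978 in liver, 0.985 in stomach and 0.991 in duodenum, and Spearman's rho was 0.963, 0.974 and 0.987. Each had a two-sided permutation p of 1e-05, the smallest that 100000 resamples can give (adjusted 1.286e-05). Without the 2 libraries farthest from the median r was 0.972, 0.982 and 0.987, and within batches 1 and 2 it ran from 0.941 to 0.996.

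Col4a3 and Col4a4, which had low counts, had r of 0.859 in liver, 0.859 in stomach and 0.772 in duodenum, with rho of 0.805, 0.794 and 0.720 (permutation p = 1e-05 for each, adjusted 1.286e-05). In batch 1 the values were 0.443 in liver and 0.5 in stomach. Col4a5 and Col4a6 had r of 0.920 in stomach and 0.870 in duodenum, with rho of 0.907 and 0.797 and the same p; in duodenum r was 0.769 without the 2 farthest libraries. In liver Col4a6 had a median of 0.192 CPM and the pair was not computed. The median level of Col4a1 over all libraries of a tissue was 44.4 CPM in liver, 463 CPM in stomach and 214 CPM in duodenum, and that of Col4a3 was 1.72, 6.44 and 2.86 CPM. The part of the spacing of the starts, and of the level, in these correlations was not tested.

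**Figure D4:**
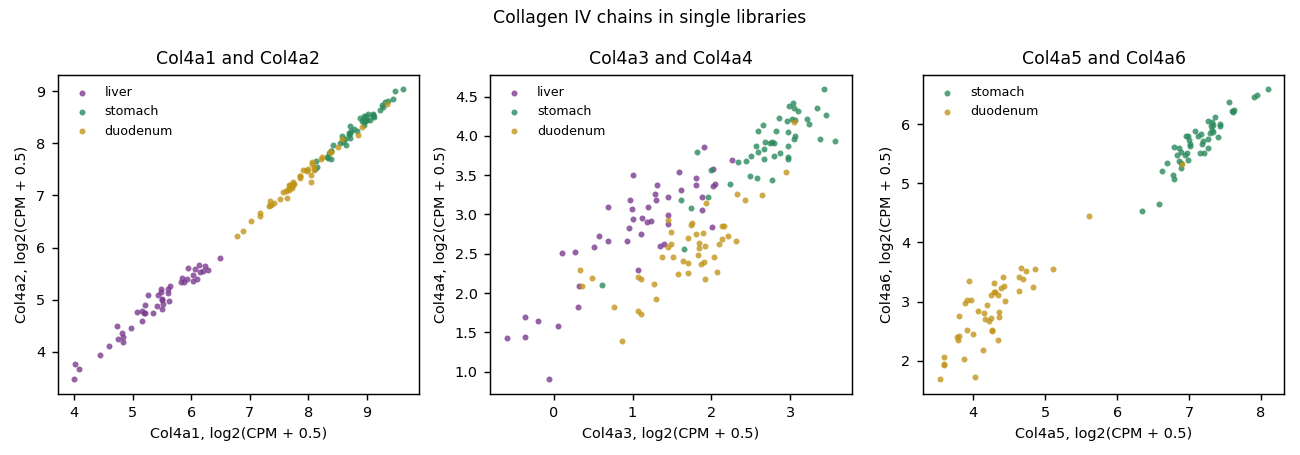
Level of the second gene against the first for the head-to-head pairs Col4a1 with Col4a2, Col4a3 with Col4a4 and Col4a5 with Col4a6, as log2(CPM + 0.5), with each point a library coloured by tissue. The Col4a1 with Col4a2 points lie on a narrow line in every tissue (r of 0.978, 0.985 and 0.991 in liver, stomach and duodenum); the Col4a3 with Col4a4 points scatter more (0.859, 0.859 and 0.772).

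Col1a1 and Col1a2, the chains of collagen I, had r of 0.901, 0.971 and 0.941 in liver, stomach and duodenum (rho 0.918, 0.95 and 0.903), and Col1a1 with Col3a1 had 0.914, 0.976 and 0.940 (rho 0.935, 0.974 and 0.917), each with a permutation p of 1e-05. Col6a1 with Col6a2, neighbours in collagen VI, had 0.946, 0.968 and 0.983 (rho 0.956, 0.964 and 0.974; permutation p = 1e-05). Not every pair was this close. Col8a1 with Col8a2 had r of 0.501 in stomach (rho 0.439; permutation p = 0.00026 and 0.00204) and 0.544 in duodenum (rho 0.488; permutation p = 8e-05 and 0.00061). Col7a1 with Col17a1 had r of 0.903 in stomach (rho 0.826; permutation p = 1e-05), and 0.446 in duodenum (rho 0.459; permutation p = 0.00156 and 0.00142).

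Serpinh1, the collagen chaperone, was set against Col1a1. Pearson's r was 0.629 in stomach and 0.809 in duodenum (rho 0.621 and 0.757; permutation p = 1e-05). In liver it was 0.139 (rho -0.006; permutation p = 0.356 and 0.968), and within batches 1 and 2 it was -0.382 and -0.341. The difference between tissues was not tested. The summed level of Col1a1, Col1a2 and Col3a1 had an r with summed smooth muscle markers of 0.510 in liver, 0.512 in stomach and 0.643 in duodenum, given as a description; in stomach it was 0.283 without the 2 farthest libraries.

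The deposited transcript tables hold estimated counts for the isoforms of 27 collagen genes with more than 1 transcript. Only 18 collagen genes, counted whether they had 1 transcript or more, had counts enough for a transcript share in all 3 tissues. The gene below was picked after its values had been seen, as the one of those 18 with the widest shift between tissues. Its shares are therefore a description without a test. Col18a1 has 3 transcripts in the tables. ENSRNOT00000116507 made up a lowest, median and highest share of 41.7%, 74.1% and 83.2% of the gene's counts in vehicle livers, 41.0%, 49.9% and 57.5% in stomachs and 1.84%, 4.39% and 19.9% in duodena. The liver and duodenal ranges did not overlap. ENSRNOT00000095032 took most of the rest, with medians of 22.0% in livers, 49.0% in stomachs and 91.7% in duodena, and ENSRNOT00000045315 had medians of 1.56%, 0.930% and 3.54%. The gene's counts behind a share ran from 3058 to 18280 per liver library, 1233 to 5573 per stomach library and 941 to 4626 per duodenum library, and the split between isoforms is the quantifier's estimate. The mammalian gene is known to give short and long forms from separate promoters; which of the rat transcripts is which was not read from these files.

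**Figure D5:**
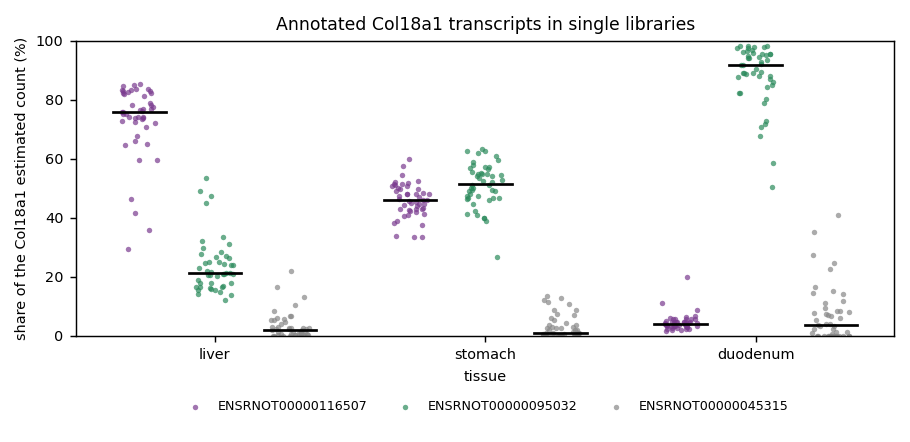
Share (%) of the Col18a1 estimated count of each library, all doses, assigned to each of the 3 transcripts in liver, stomach and duodenum; each point is a library and each bar the median over them. ENSRNOT00000116507 has a vehicle median of 74.1% in liver, 49.9% in stomach and 4.39% in duodenum, and ENSRNOT00000095032 the reverse order, 22.0%, 49.0% and 91.7%.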

How the data were processed

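PolyA RNA of liver, stomach and duodenum was sequenced in 141 libraries. The authors deposited estimated counts per gene and per transcript in 1 table per tissue; the submitters' processing notes name the aligner STAR 2.7.11b, the quantifier Salmon 1.10.3, Trim Galore 0.6.10 with cutadapt 4.9, UMI-tools 1.1.5, quality reports by MultiQC 1.28 and FastQC 0.12.1, and the build mRatBN7.2, without their order or settings. The sources used here do not give whether counting used strand.

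Estimated counts were rounded to whole numbers. Genes passed edgeR's filterByExpr (minimum count 10, minimum total 15), and edgeR 4.0.16 (R 4.3.3) fitted its quasi-likelihood model per tissue with TMM scaling, sex and dose groups and the batch number, and Benjamini-Hochberg adjustment over all genes of the tissue. The standard error is the fold change divided by the square root of F. Vehicle controls of the 3 tissues were fitted together by tissue and sex, without batch. DESeq2 1.42.0, other scalings, no filter, no batch term, replicate numbers as a block, left-out libraries and marker sums as covariates were alternatives. Correlations used Python 3.11.15. The models were tested on simulated data. Within a tissue, same-numbered libraries of different groups showed no common deviation. Whether a number means the same animal in different tissues was not tested, and the fit over tissues treats its libraries as independent.

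The collagens and the gene lists were chosen with earlier results of these data known. Named are collagens called in any comparison, the 3 with the smallest p for each dose against vehicle and tissue, and 10 collagens fixed by name; of other lists, at most 6 called members per list and comparison. One called member of the basement membrane list is not reported here. Female against male contrasts in dosed animals, the squamous and enterocyte covariates and the raw totals were added after seeing the data. Depth sets precision: a collagen with a median of 0 CPM is not shown to be absent.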

Additional observations from a re-analysis of the deposited data

Results flagged for a closer look

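Libraries that stood apart from the rest of their group were sought for named collagens in 72 groups of 6 to 8 libraries, and 6 did. The rule's rate of about 1 in 20 is for separate groups of normally distributed values. These groups share libraries, and Col1a1, Col1a2 and Col3a1 rise together, so the 6 are not read as an excess. Stomach male control replicate 6, of batch 2, accounted for 3 of them: Col1a1 had 2563 CPM and the nearest library of its group 1176 CPM, Col1a2 had 1605 and 841 CPM, and Col3a1 had 4059 and 2323 CPM. Stomach female high replicate 1, of batch 3, had 1367 CPM of Col1a1 and the nearest library 832 CPM. Liver female high replicate 5, of batch 2, had 13.4 CPM of Col1a1 with the nearest at 6.48 CPM, and 7.59 CPM of Col4a5 with the nearest at 3.91 CPM.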

How the results depend on the processing

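Leaving out each library in turn gave these ranges for the number of collagens called. The shares over all genes in those fits are not given. Female against male in liver gave 4 to 5 at vehicle, 9 to 16 at 5 mg/kg and 2 to 6 at 50 mg/kg; in stomach it gave 0 to 2, 0 to 3 and 0 to 1. High against low dose in stomach gave 0 to 3, with 0 in 16 fits, and high dose against vehicle gave 0 to 1 in stomach and 0 to 5 in duodenum, with 0 to 1 for stomach males. Among tissues the ranges were 34 to 37 for stomach against duodenum, 34 to 36 for liver against duodenum and 35 to 36 for liver against stomach. Without batch 3 the liver sex counts were 3 at vehicle and 2 at 50 mg/kg, and high against low dose in stomach was 0. Without a batch term high against low dose in stomach was 0, and the stomach sex count at 50 mg/kg was 0. Over all genes the fits without batch 3 called 2662, 1545 and 0, and those without a batch term 0 and 17. Adjusted for the share of ribosomal protein transcripts the liver sex count at 5 mg/kg was 7 and Col4a2 there turned to 0.0228. With that adjustment stomach high against low dose was 3, the stomach sex count at 50 mg/kg 0 and the duodenal one 1. Over all genes those fits called 2397, 265, 15 and 16. In duodenum at 50 mg/kg against vehicle that adjustment turned Col18a1 to 0.0412, Col1a1 to 0.0716, Col1a2 to 0.135, Col3a1 to 0.145, Col4a1 to 0.0461, Col4a2 to 0.0747, Col6a1 to 0.0460 and Col6a3 to 0.128. With the smooth muscle markers the counts were 8 for liver sex at 5 mg/kg, 2 and 3 for stomach sex at 5 and 50 mg/kg, 9 for duodenum at 50 mg/kg and 4 for its males. Over all genes the first 4 of these fits called 2082 of 13130, 46 and 42 of 15140, and 3842 of 15189. With squamous markers the collagen counts were 0 for stomach high against low dose and 7 and 3 for stomach sex at 5 and 50 mg/kg. Over all genes those fits called 0, 68 and 64 of 15140. With enterocyte markers the collagen count was 1 for duodenum at 50 mg/kg. DESeq2 gave 2 for stomach high against low dose, 4 for stomach sex at 5 mg/kg, and 1 for duodenum at 50 mg/kg and for its males. Over all genes its stomach fits called 318 and 52, where the main fits called 107 and 35. For its duodenum fits the count over all genes is not given. With the replicate number as a block stomach high against low dose gave 2 and stomach sex at 5 mg/kg 4. The liver sex counts were then 5, 12 and 4. Over all genes those fits called 226 and 31 in stomach, and 2975, 2710 and 1885 in liver. Same-numbered libraries of different groups had median correlations of their deviations of -0.02, 0.01 and 0.02 in liver, stomach and duodenum. For other pairs of libraries the medians were 0.02, -0.01 and -0.01. These values cover pairs within a tissue, so they cannot show whether a number pairs libraries across tissues. The cause of the changes between settings was not tested. Low counts limit Col4a3, Col24a1 and the collagens near 0 CPM in liver.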
